A study of Mus musculus with 18 samples.

Results

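Insulin, insulin-like growth factor (IGF) and Akt kinase genes were followed across reproductive state in the lateral septum (LS), a limbic region of the forebrain that takes part in maternal behavior. The set holds 8 genes chosen by symbol: the growth factor gene Igf1, the binding protein gene Igfbp5, the receptor genes Igf1r and Insr, the receptor substrate genes Irs1 and Irs2, and the kinase genes Akt1 and Akt2. They were measured by 11 probesets that each name 1 gene only, out of 35557 probesets and 19946 gene symbols on the array. Where a gene had more than 1 such probeset, the brightest was taken as the main one and the others are given beside it.

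Insulin and IGF-1 bind related receptor tyrosine kinases, which phosphorylate IRS adaptor proteins. These recruit PI3 kinase, whose lipid product brings Akt to the membrane, where PDK1 and mTOR complexes activate it. Akt then phosphorylates, among others, FOXO transcription factors, which leave the nucleus. In the brain this pathway is known for roles in growth, survival, synaptic plasticity and energy balance, and most of its regulation is by phosphorylation, which an mRNA array does not measure.

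Each of the 18 Affymetrix Mouse Gene 1.0 ST arrays held LS RNA of 1 outbred hsd:ICR female mouse of about 70 days of age. The virgin group (n = 6) was housed with other females during the mating period of the other groups. The maternal group (n = 6) was lactating, nursed litters set to 11 pups and was dissected on postpartum Day 7. The pups removed group (n = 6) had also given birth, lost its pups on Day 2 and was dissected on the same day as the maternal group, so that it differs from maternal mice in lactation and contact with pups. The labels name no transgene and no drug treatment in any group. The LS was punched from both sides of frozen sections, and virgin and pups removed mice were in diestrus.

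Array medians of the deposited log2 signal lay between 7.61 and 7.70, and the lowest correlation between arrays of the same group was 0.991 over all probesets. All 9 marker genes listed for LS neurons, such as the transcription factor gene Zic1 and the GABA synthesis genes Gad1 and Gad2, were brighter than the median probeset, and limma called 0 of the 9 in any comparison (with unadjusted p under 0.05, 2 were higher and 1 lower in maternal relative to virgin LS). The LS list had a mean signal of 10.77 ± 0.04 (SD, n = 6) for virgin arrays, 10.76 ± 0.02 for maternal arrays and 10.72 ± 0.10 for pups removed arrays. Genes of neighboring tissue were less even. Striatal medium spiny neuron markers (14 genes) had a mean log2 signal of 10.48 ± 0.12 in virgin mice, with arrays from 10.34 to 10.59, of 10.002 ± 0.23 in maternal mice, from 9.59 to 10.22, and of 10.34 ± 0.38 in pups removed mice, from 9.78 to 10.72. All 14 had a lower maternal than virgin mean (median difference -0.49), and 4 of them passed the threshold. Neural stem and dividing cell markers (9 genes) had means of 8.36 ± 0.06, 8.12 ± 0.07 and 8.31 ± 0.07 in the same order of groups, and 6 of 9 passed as lower in maternal relative to virgin LS. In bulk tissue, fewer cells of a type and less RNA per cell cannot be told apart. An array has no true 0, so a marker cannot be called absent here.

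Of the 8 genes, Akt1 alone passed the threshold of the study (adjusted p under 0.25 over all probesets) in maternal relative to virgin LS, and it was lower. Across the array 585 probesets passed in this comparison (1.65% of all tested), of which 289 were lower (0.813%). At an unadjusted p under 0.05, Akt1 and Akt2 were lower and Igf1 was higher, against 10.4% of all probesets in either direction. The median log2 difference of the 8 genes was 0.012, equal to the 0.012 of all probesets, with 5 genes above 0 and 3 below. In maternal relative to pups removed LS, 0 of the 8 passed in limma (0.0309% of all probesets did), and at an unadjusted p under 0.05 Akt1 was lower, against 8.96% of all probesets. The median of the 8 there was -0.0058, beside -0.0033 for all. The study's own analysis listed Akt1 as lower in maternal LS than in each other group at this threshold. The fit here reached it for Akt1 against virgin LS only. In pups removed relative to virgin LS, again 0 of the 8 passed (0.208% of all probesets did), and Igf1 was higher at an unadjusted p under 0.05, against 8.13% of all probesets. The 3 comparisons share their groups, so a gene that is low in maternal mice appears in both maternal comparisons.

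**Figure D1:**
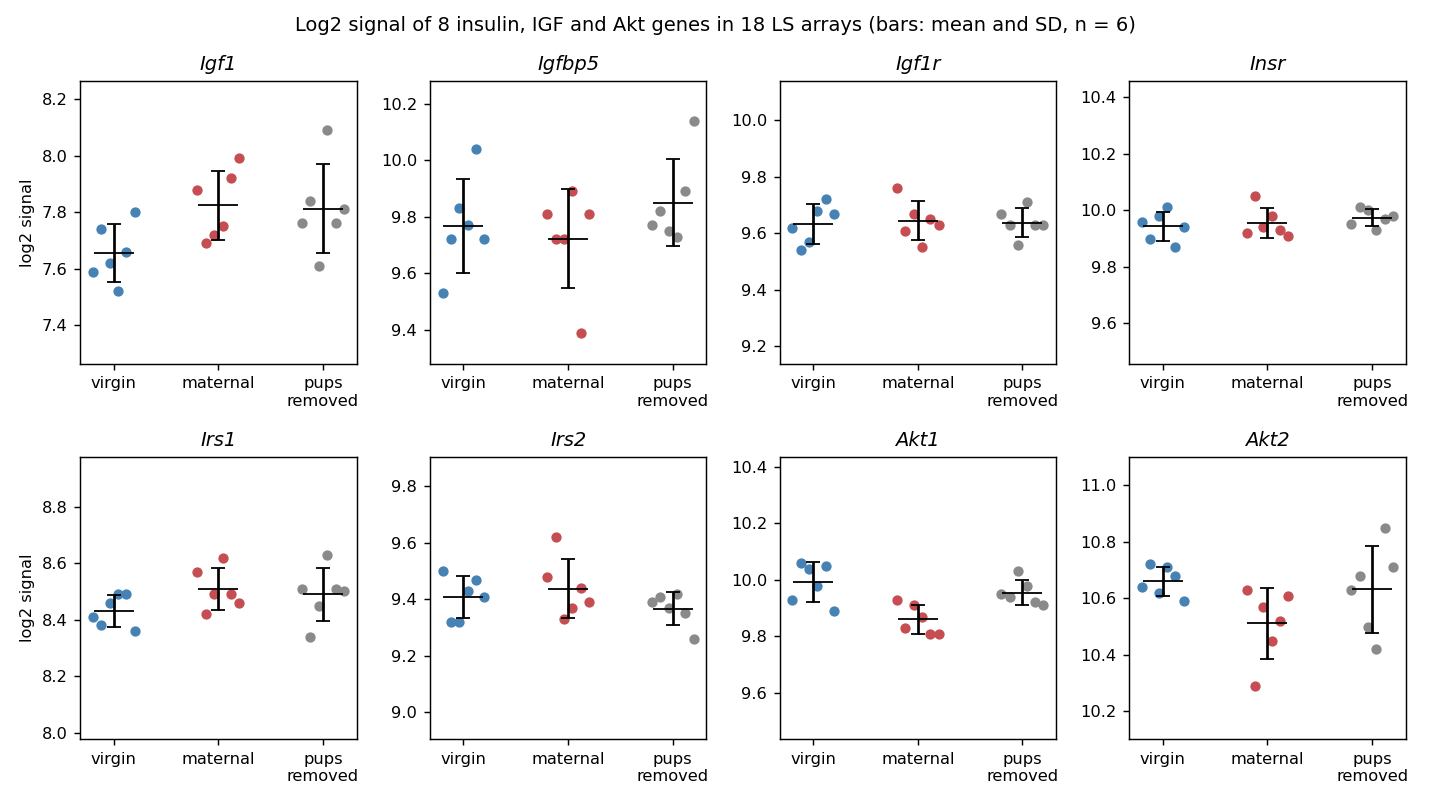
Log2 signal (y axis, spanning 1 log2 unit in every panel) of the main probeset of the 8 genes in each of 18 LS arrays, by group (x axis). Points are arrays, and bars give the mean and SD of 6 arrays. Maternal arrays of Akt1 lie between 9.81 and 9.93 and virgin arrays between 9.89 and 10.06, while Igf1r and Insr arrays of the 3 groups lie at the same height.

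Akt1 encodes a serine/threonine kinase at the center of the pathway, with known roles in cell growth and survival. The gene lies at chr12:112653821-112674884 (GRCm38.p6), on the minus strand. Its log2 signal in virgin mice ran from 9.89 through a median of 10.01 to 10.06. In maternal mice the lowest, median and highest were 9.81, 9.85 and 9.93. In pups removed mice they were 9.91, 9.945 and 10.03. Maternal mice were thus the low group: all 6 of their arrays lay below the virgin mean and below the pups removed mean, and 4 of the 6 lay below the lowest array of each of these groups, although the ranges overlapped. Relative to virgin mice, maternal Akt1 signal fell by 0.13 in log2 units (standard error, SE, 0.037, 95% interval -0.21 to -0.054, limma adjusted p = 0.212), a change of -8.72%. The exact two-sided permutation test of this single gene gave p = 0.0108, where the smallest p that 6 against 6 arrays allow is 0.00216. In maternal relative to pups removed LS the difference was -0.095 (95% interval -0.17 to -0.017, limma adjusted p = 0.485, exact permutation p = 0.0108). In pups removed relative to virgin LS it was -0.037 (95% interval -0.11 to 0.041, adjusted p = 0.854, exact permutation p = 0.32). From the highest to the lowest, the order of the means was virgin, pups removed, maternal, and the neighbors virgin and pups removed did not differ beyond their spread.

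The Akt1 call lay close to the threshold. It was lost when the fit held the virgin and maternal arrays alone (adjusted p = 0.296) and without any 1 of maternal replicates 2, 4, 5 or 6 (adjusted p = 0.348, 0.344, 0.388 and 0.348) or of virgin replicates 2, 3, 4 or 5 (adjusted p = 0.412, 0.358, 0.29 and 0.286). Over all 18 arrays left out in turn, the difference stayed between -0.15 and -0.12 and the gene passed in 10 of 18 fits.

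**Figure D2:**
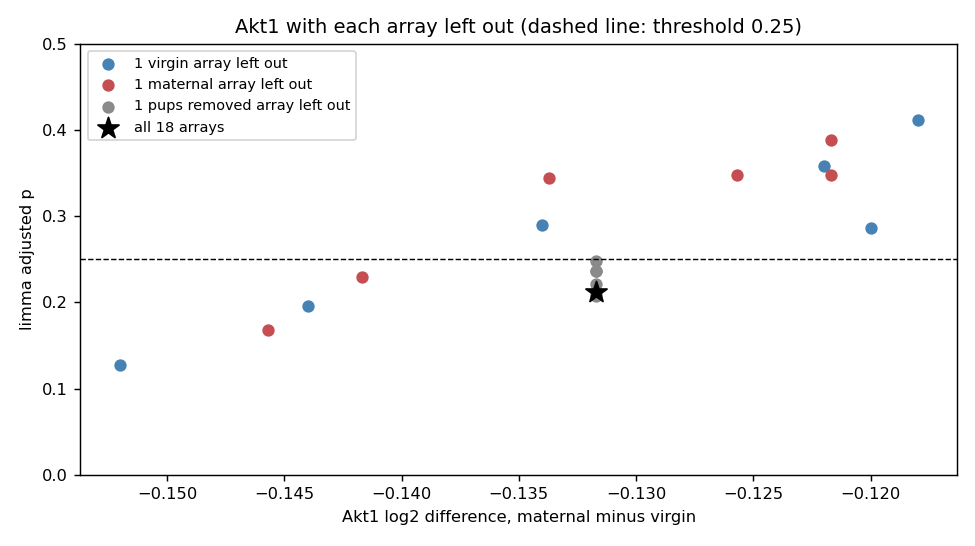
Akt1 log2 difference of maternal minus virgin LS (x axis) and its limma adjusted p (y axis) with each of the 18 arrays left out in turn. Colors give the group of the array left out, the star is the fit of all 18 arrays (-0.13, adjusted p = 0.212), and the dashed line is the threshold of 0.25. Leaving out a pups removed array never ended the call, whereas 4 of 6 maternal and 4 of 6 virgin arrays did.

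Akt2 encodes the kinase of this family best known for insulin-driven glucose uptake, and lies at chr7:27591552-27640826 on the plus strand. On its brighter probeset, virgin arrays ran from 10.59 through a median of 10.66 to 10.72. Maternal arrays had a lowest value of 10.29, a median of 10.545 and a highest of 10.63. Those of pups removed mice spanned 10.42 to 10.85, with a median of 10.655. All 6 maternal arrays lay below the virgin mean, 4 of them below the lowest virgin array, and the pups removed arrays reached both above and below the virgin range. The difference of maternal from virgin LS was -0.15 (SE 0.067, 95% interval -0.29 to -0.0078, limma adjusted p = 0.453, exact permutation p = 0.013). Maternal relative to pups removed LS gave -0.12 (SE 0.067, adjusted p = 0.629, exact permutation p = 0.184), and pups removed relative to virgin LS gave -0.028 (adjusted p = 0.95). In its point estimate Akt2 differed by more than Akt1 (-9.77% against -8.72%), but its SD within groups was 0.119 against 0.0565 for Akt1, and it did not pass.

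A dimmer Akt2 probeset gave close values. Virgin arrays had a mean of 9.945 ± 0.10, maternal arrays of 9.805 ± 0.14 and pups removed arrays of 9.90 ± 0.06 (SD, n = 6). Maternal relative to virgin LS differed by -0.14 (SE 0.061, limma adjusted p = 0.436, exact permutation p = 0.0996). Over the 18 arrays the Akt2 probesets had a Pearson r of 0.80. The annotation places both under Akt2, but the 6 probesets next in number to the brighter one all belong to chromosome 11, between Vstm2a and Egfr, and those next to the dimmer one to chromosome 7, where the gene lies. Neighboring numbers mostly belong to neighboring genes on this array, and the target sequence of the brighter one was not analysed here, so that only the dimmer one has its number where the gene is.

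The brighter Akt2 probeset, whose number lies among chromosome 11 genes, moved with the marker genes of neighboring tissue from array to array. The Akt2 correlations given here are of that probeset only. It had an r of 0.80 with the mean of the 14 striatal markers over 18 arrays and of 0.72 after each group mean was subtracted. With the choroid plexus list (9 genes, with means of 8.94 ± 0.60 for virgin, 8.42 ± 0.49 for maternal and 8.82 ± 0.82 for pups removed arrays) it had an r of 0.76, and of 0.72 within groups. With the neural stem and dividing cell list it had an r of 0.76, and of 0.73 within groups. Taken group by group (6 arrays each), the r of this probeset with the striatal list was 0.44 among virgin, 0.51 among maternal and 0.87 among pups removed arrays. Akt1 had an r of 0.47 with the striatal list over all arrays, but its slope turned between groups, with an r of 0.78 among virgin, 0.36 among maternal and -0.64 among pups removed arrays. With the stem and dividing cell list Akt1 had an r of 0.71 over all arrays, and of 0.61, 0.49 and -0.47 in the same order of groups. After group means were subtracted, the list that Akt1 followed most was that of astrocytes (10 genes, r = 0.65, against 0.38 before), whose means were 10.41 ± 0.07 for virgin, 10.42 ± 0.05 for maternal and 10.40 ± 0.02 for pups removed arrays, and next came the LS neuron list (r = 0.54, against 0.30 before). By group, the Akt1 r with the astrocyte list was 0.94 among virgin, 0.12 among maternal and 0.81 among pups removed arrays. With the LS neuron list it was 0.34, 0.44 and 0.96 in the same order. With the choroid plexus list the Akt1 r was 0.88, 0.87 and -0.81 by group, and 0.27 after group means were subtracted. With the 6 ependymal cell markers it was 0.80, 0.95 and -0.77 by group, and 0.30 after subtraction. Ependymal means were 8.43 ± 0.20 for virgin, 8.14 ± 0.24 for maternal and 8.45 ± 0.30 for pups removed arrays. These correlations share arrays, tissue punches and scaling, and are given as descriptions. What part the tissue composition has in the Akt1 and Akt2 differences was not tested.

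**Figure D3:**
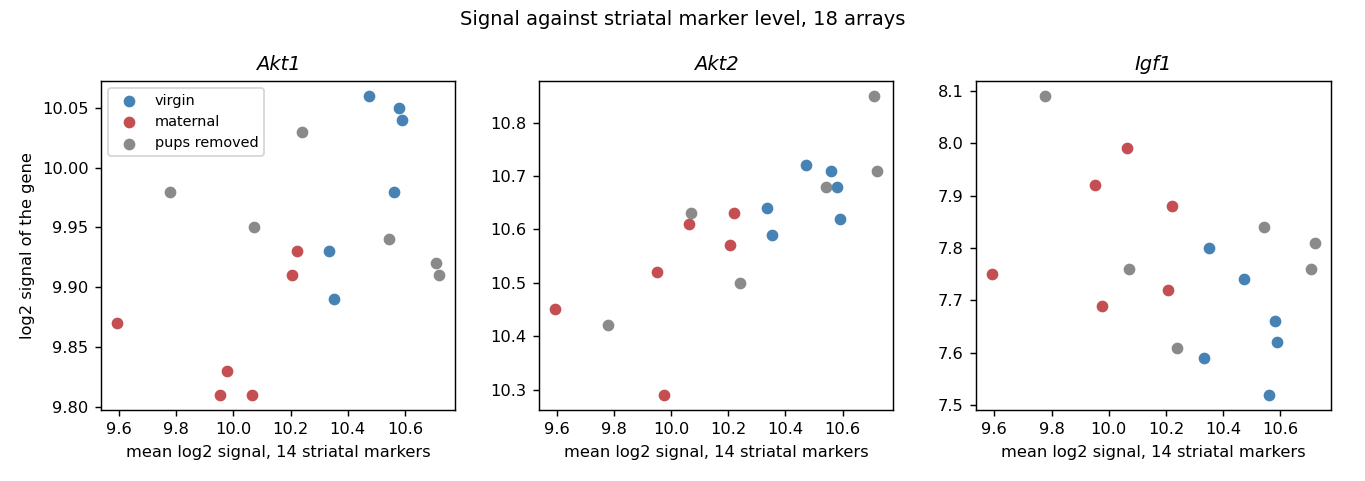
Log2 signal of Akt1, Akt2 (brighter probeset) and Igf1 (y axes) against the mean log2 signal of 14 striatal medium spiny neuron markers (x axes) in 18 LS arrays, colored by group. The Akt2 points climb with the marker level (r = 0.80), also within groups (r = 0.72). The Akt1 points slope upward in virgin arrays (r = 0.78) and downward in pups removed arrays (r = -0.64).

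The Akt1 and Akt2 promoters are shown because these are the kinase genes whose maternal signal was low. That of Igf1 is shown because it was the 1 member higher in maternal than virgin LS at an unadjusted limma p under 0.05. Each sequence is a window of 300 bases, 5′ to 3′, that ends shortly after an annotated start in RefSeq (GRCm38.p6), the outermost of 2 starts for Akt1 and of 4 for Akt2 and the 1 listed for Igf1. Capitals mark matches to either of 2 motifs searched on both strands. The first is TTCNNNGAA, the paired half-sites read by STAT5, a factor downstream of the prolactin receptor. The second is TGTTTAC or its reverse complement GTAAACA, a core read by FOXO factors.
Akt1 is at chr12:112674835-112675134 on the minus strand, Akt2 at chr7:27591302-27591601 and Igf1 at chr10:87860861-87861160, both on the plus strand.
Akt1: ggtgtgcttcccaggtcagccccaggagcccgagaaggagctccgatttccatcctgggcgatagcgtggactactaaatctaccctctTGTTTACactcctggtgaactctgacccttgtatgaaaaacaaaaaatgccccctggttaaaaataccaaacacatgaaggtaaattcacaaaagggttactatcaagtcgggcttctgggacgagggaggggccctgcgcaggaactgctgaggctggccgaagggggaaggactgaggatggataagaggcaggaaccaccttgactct
Akt2: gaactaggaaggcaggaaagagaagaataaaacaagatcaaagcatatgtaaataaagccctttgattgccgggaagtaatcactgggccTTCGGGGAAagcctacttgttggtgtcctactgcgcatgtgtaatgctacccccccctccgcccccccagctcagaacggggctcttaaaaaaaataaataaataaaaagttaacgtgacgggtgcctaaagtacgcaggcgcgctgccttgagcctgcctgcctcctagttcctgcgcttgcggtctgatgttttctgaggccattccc
Igf1: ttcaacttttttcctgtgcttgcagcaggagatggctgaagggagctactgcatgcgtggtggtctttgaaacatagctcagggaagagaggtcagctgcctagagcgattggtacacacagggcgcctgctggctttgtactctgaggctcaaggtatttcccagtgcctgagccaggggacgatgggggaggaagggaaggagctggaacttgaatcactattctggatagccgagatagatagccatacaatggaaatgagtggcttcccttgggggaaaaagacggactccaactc
The Akt1 window holds 1 FOXO core, which 3.65% of 32851 promoters of this length hold. That of Akt2 holds 1 STAT5 pair, which 8.3% of them hold, and the Igf1 window holds no match to either. Over the 11 windows of the 7 genes with a promoter, these are the only matches: the other Akt1 start, the other Akt2 starts and the windows of Igf1r, Irs1, Irs2 and Igfbp5 hold none, so 9 of 11 windows match neither motif. Such letters are a description of the windows and show no binding. Of the 8 genes, 7 had a promoter in the sequence table, and the 3 windows shown held 50 to 52.3% G and C, near the median of 52.7% for all promoters. The other Akt1 start, at 79.7%, and those of Igf1r, Irs1 and Irs2, at 71.3% to 76.0%, were richer in G and C.

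Igf1, the gene of the growth factor itself, which neurons and microglia as well as liver make, had the opposite direction. It lies at chr10:87858265-87937047 on the plus strand. Virgin arrays ran from 7.52 through a median of 7.64 to 7.80. Maternal arrays had a lowest value of 7.69, a median of 7.815 and a highest of 7.99, and pups removed arrays 7.61, 7.785 and 8.09. All 6 maternal arrays lay above the virgin mean and 3 above the highest virgin array, and the pups removed arrays spanned the whole maternal range. Maternal relative to virgin LS differed by 0.17 (SE 0.072, 95% interval 0.018 to 0.32, limma adjusted p = 0.422, exact permutation p = 0.0303), or 12.51%. Pups removed relative to virgin LS differed by 0.16 (95% interval 0.0050 to 0.31, adjusted p = 0.597, exact permutation p = 0.0606), with 5 of 6 arrays above the virgin mean. Between the groups that had given birth the difference was 0.013 (95% interval -0.14 to 0.17, adjusted p = 0.972). None of these passed the threshold in limma. Igf1 had its largest r with the list of mural cell and meningeal fibroblast markers (13 genes), 0.60 over 18 arrays and 0.69 within groups, and that list had means of 8.05 ± 0.07 for virgin, 8.05 ± 0.09 for maternal and 8.10 ± 0.04 for pups removed arrays. With the striatal list its r was -0.43, or -0.25 within groups.

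Igfbp5 encodes a secreted protein that binds IGF-1 and alters its access to the receptor, and lies at chr1:72858065-72874865. It was the most variable of the 8, with an SD within groups of 0.165 where the median probeset had 0.107. Virgin arrays spanned 9.53 to 10.04 (median 9.745), maternal arrays 9.39 to 9.89 (median 9.765) and pups removed arrays 9.73 to 10.14 (median 9.795). The ranges of all 3 groups overlapped, with 1 maternal array outside the virgin range and 3 outside the pups removed range. Maternal relative to virgin LS differed by -0.045 (95% interval -0.24 to 0.15, limma adjusted p = 0.903) and maternal relative to pups removed LS by -0.13 (95% interval -0.32 to 0.064, adjusted p = 0.711). Pups removed relative to virgin LS differed by 0.082 (adjusted p = 0.873). Without maternal replicate 5, which held the lowest value, the difference of maternal from virgin LS was 0.022 and that of maternal from pups removed LS -0.060. Without pups removed replicate 6 the latter was -0.069. Over 18 arrays Igfbp5 had an r of 0.59 with the 6 ependymal cell markers, whose means were 8.43 ± 0.20, 8.14 ± 0.24 and 8.45 ± 0.30 in virgin, maternal and pups removed mice.

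The receptor genes, Igf1r at chr7:67952257-68233668 and Insr at chr8:3150922-3279649, differed least of the 8 between maternal and virgin LS. Igf1r, which encodes the receptor that IGF-1 binds with high affinity, had virgin arrays from 9.54 to 9.72 (median 9.645), maternal arrays from 9.55 to 9.76 (median 9.64) and pups removed arrays from 9.56 to 9.71 (median 9.63). Its differences were 0.012, 0.0067 and 0.0050 in maternal relative to virgin, maternal relative to pups removed and pups removed relative to virgin LS, with an SE of 0.040 and limma adjusted p of 0.947, 0.975 and 0.986. The 95% interval of the maternal difference from virgin ran from -0.073 to 0.096. Insr, the insulin receptor gene, had virgin arrays from 9.87 to 10.01 (median 9.95), maternal arrays from 9.91 to 10.05 (median 9.935) and pups removed arrays from 9.93 to 10.01 (median 9.975). Maternal and virgin LS differed by 0.012 (95% interval -0.057 to 0.080, adjusted p = 0.933), maternal and pups removed LS by -0.018 (adjusted p = 0.898), and pups removed and virgin LS by 0.030 (adjusted p = 0.868). The SD of Insr within groups, 0.0459, was the smallest of the 8. Its dimmer probeset gave -0.017 for maternal relative to virgin LS (adjusted p = 0.908) and had an r of -0.016 with the brighter one. The sign of the Igf1r and Insr differences between maternal and virgin LS turned with median centring.

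Irs1 (chr1:82233105-82291439) and Irs2 (chr8:10984681-11008929) encode the adaptors that carry the signal from these receptors to PI3 kinase. Irs1 had virgin arrays from 8.36 to 8.49 (median 8.435), maternal arrays from 8.42 to 8.62 (median 8.49) and pups removed arrays from 8.34 to 8.63 (median 8.505). Maternal arrays lay above the virgin mean in 5 of 6 mice, with a difference of 0.077 (SE 0.046, 95% interval -0.020 to 0.17, limma adjusted p = 0.58, exact permutation p = 0.0758). The differences were 0.018 (adjusted p = 0.937) between maternal and pups removed and 0.058 (adjusted p = 0.799) between pups removed and virgin LS. A dimmer Irs1 probeset, with a mean of 6.05, differed by 0.095 between maternal and virgin LS (adjusted p = 0.703). Irs2 had virgin arrays from 9.32 to 9.50 (median 9.42), maternal arrays from 9.33 to 9.62 (median 9.415) and pups removed arrays from 9.26 to 9.42 (median 9.38). Its maternal difference was 0.030 from virgin (adjusted p = 0.875) and 0.072 from pups removed LS (95% interval -0.030 to 0.17, adjusted p = 0.692). Pups removed and virgin LS differed in Irs2 by -0.042 (adjusted p = 0.878). Group ranges overlapped for both adaptor genes in every comparison.

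**Figure D4:**
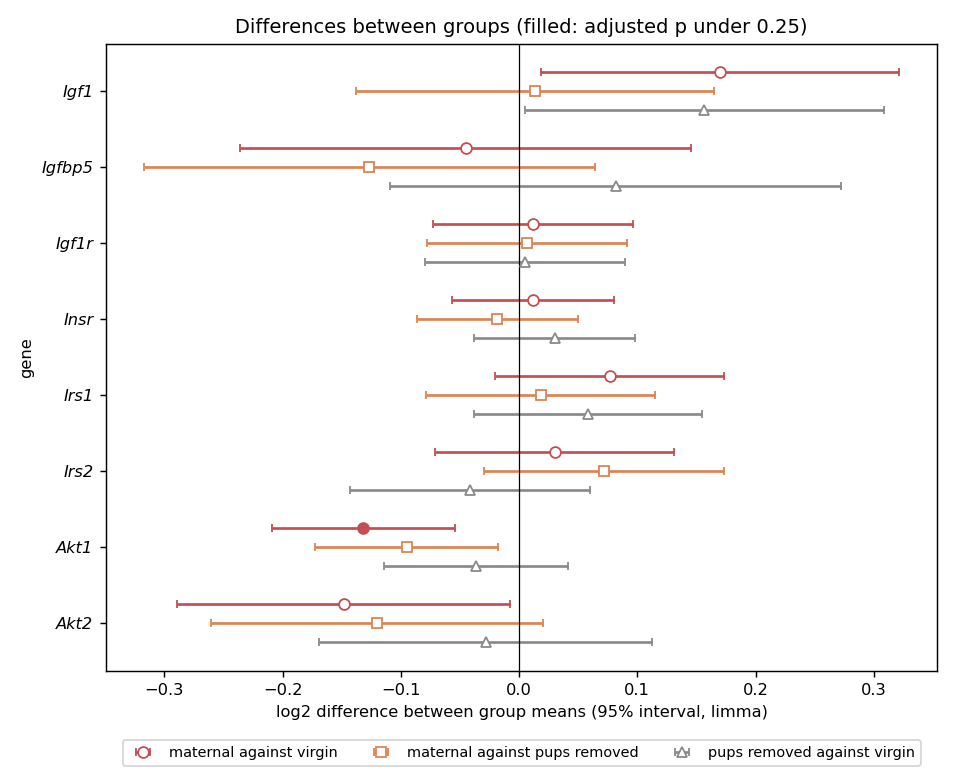
Log2 differences between group means (x axis) of the main probeset of the 8 genes (y axis) in 3 comparisons, with 95% intervals from limma. A filled marker has an adjusted p under 0.25, which holds for Akt1 in maternal against virgin LS alone. The intervals of Igf1r and Insr are centered near 0, and those of Akt1 and Akt2 lie to the left of 0 in maternal against virgin LS.

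The 8 genes did not move as a unit across arrays. Over their 28 pairs, the Pearson r of the main probesets over 18 arrays ran from -0.49 (Akt2 with Irs2) to 0.35 (Akt1 with Akt2), was above 0 in 11 pairs and was under 0.5 in size in all 28. After the group means were subtracted, the Akt1 and Akt2 r was -0.040, and Igf1 with Insr had the value farthest from 0, an r of -0.63 (-0.39 before). Among about 15566 probesets of other single genes with a mean of at least 7, those most like Akt1 over the 18 arrays were Cat (the peroxide-degrading enzyme catalase, r = 0.90), P2ry12 (a purinergic receptor of microglia, r = 0.88) and Psmd3 (a proteasome subunit, r = 0.85). For the brighter Akt2 probeset they were Ppp1r1a (an inhibitor of protein phosphatase 1, r = 0.89), Acvr1c (an activin receptor, r = 0.89) and Grm3 (a glutamate receptor, r = 0.88). For Igf1 they were Bin1 (r = 0.79), Fmod (r = 0.78) and Fnbp1 (r = 0.78). Of the 8 genes, the others had leading r values from 0.75 (Insr with Cwf19l2) to 0.85 (Irs1 with Mtss1). These were picked as the highest of many, and such values carry no test.

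A list of other pathway genes was set beside the 8. Of its 73 measured genes, 3 passed in maternal relative to virgin LS, all lower: Foxo1, Foxo6 and Pik3r2. That is 4.11%, beside 1.65% of all probesets. The latter include dim probesets and ones that name no gene, so these shares are not of like sets. Among probesets with a mean of at least 7, 1130 of 22544 passed, and so did 7 of the pathway genes. How many of the 73 have such a mean was not counted, so no share is set beside that of these probesets. At an unadjusted p under 0.05, 4 of the 73 were higher and 7 lower. Among the higher ones was the mTOR complex gene Prr5, at 0.13 (limma adjusted p = 0.415). The study's own analysis listed Prr5 as higher in maternal than virgin LS, a call that the fit here did not reach. The median difference of the 73 was -0.012, beside 0.012 for all probesets. In maternal relative to pups removed LS limma called 0 of the 73 (with unadjusted p under 0.05, 3 were higher and 7 lower, median -0.017), and in pups removed relative to virgin LS 0 passed (0 higher and 1 lower at an unadjusted p under 0.05, median 0.0050). Among Akt substrates and effectors 2 of 23 passed as lower in maternal relative to virgin LS. Among PI3 kinase subunits it was 1 of 6. The count was 0 for the other ligands (2 genes), IGF binding proteins and their proteases (9), receptors (2), receptor substrates and adaptors (14) and opposing phosphatases (8). It was also 0 of 9 in the last role, which holds kinases that activate Akt or are related to it, and mTOR complex genes.

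Foxo1 encodes a transcription factor that Akt keeps out of the nucleus. Its virgin arrays ran from 9.69 to 9.99 (median 9.82), its maternal arrays from 9.25 to 9.62 (median 9.55) and its pups removed arrays from 9.48 to 9.96 (median 9.735). Maternal and virgin ranges did not overlap, which held for 0.835% of all probesets. Relative to virgin mice, Foxo1 fell by 0.34 in maternal mice (SE 0.085, limma adjusted p = 0.179, exact permutation p = 0.00216, the smallest possible). The difference from pups removed LS was -0.24 (adjusted p = 0.433), which passed without pups removed replicate 4 (adjusted p = 0.212), and that of pups removed from virgin LS -0.098 (adjusted p = 0.823). Foxo1 followed the 14 striatal markers with an r of 0.95 over 18 arrays and of 0.91 within groups. The part of striatal tissue in its difference was not tested. Without any 1 of maternal replicates 4, 5 or 6 (adjusted p = 0.32, 0.329 and 0.267) or virgin replicates 2 or 3 (adjusted p = 0.304 and 0.297) it no longer passed.

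Foxo6, a further member of that factor family with high expression in brain, fell by 0.22 (SE 0.052, limma adjusted p = 0.155, exact permutation p = 0.00866). Virgin arrays ran from 7.72 to 7.97 (median 7.86), maternal arrays from 7.55 to 7.77 (median 7.61) and pups removed arrays from 7.71 to 7.88 (median 7.825). Its difference from pups removed LS was -0.17 (adjusted p = 0.375), with all 6 maternal arrays below the pups removed mean. With the striatal markers it had an r of 0.64, and of 0.32 within groups. The call was lost without maternal replicates 4, 5 or 6 (adjusted p = 0.298, 0.326 and 0.3) or virgin replicate 2 (adjusted p = 0.26).

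Pik3r2, a regulatory subunit of PI3 kinase, fell by 0.13 (SE 0.039, limma adjusted p = 0.238, exact permutation p = 0.00433). Virgin arrays ran from 9.33 to 9.48 (median 9.41), maternal arrays from 9.18 to 9.37 (median 9.31) and pups removed arrays from 9.29 to 9.43 (median 9.33), and 5 of 6 maternal arrays lay below the lowest virgin array. It passed in 5 of the 18 fits that left out 1 array each and in none that left out virgin replicates 1, 2, 3, 4 or 5, maternal replicates 2, 3, 4, 5 or 6, or pups removed replicates 1, 3 or 5 (adjusted p from 0.252 to 0.455), nor in the fit of virgin and maternal arrays alone (adjusted p = 0.319) or after quantile normalization (adjusted p = 0.263).

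In the roles without a call, the gene with the smallest p in maternal relative to virgin LS was named. Mlst8, a subunit of the mTOR complexes, differed by -0.10 (limma adjusted p = 0.262), and passed after quantile normalization (adjusted p = 0.239), with trend and robust moderation (adjusted p = 0.22), among probesets with a mean of 7 or more (adjusted p = 0.176) and without pups removed replicate 4, virgin replicate 1 or virgin replicate 6 (adjusted p = 0.248, 0.159 and 0.187). Dok4, an insulin receptor substrate, differed by -0.13 (adjusted p = 0.315) and passed after quantile normalization (adjusted p = 0.212) and among probesets with a mean of 7 or more (adjusted p = 0.225). No call was made for Igf2r, the receptor that clears IGF-2, at -0.072 (adjusted p = 0.504), Inppl1, a lipid phosphatase that opposes PI3 kinase, at -0.087 (adjusted p = 0.514) or the insulin gene Ins2 at -0.065 (adjusted p = 0.723). Pappa encodes a protease that frees IGF-1 from its binding proteins. Its maternal arrays, from 7.33 to 7.51, lay above all pups removed arrays, from 7.19 to 7.32, a separation that 0.529% of all probesets had. The difference was 0.13 (adjusted p = 0.338, exact permutation p = 0.00216) and passed without pups removed replicate 4 (adjusted p = 0.229). From virgin LS, with arrays of 7.21 to 7.39, it was 0.11 (adjusted p = 0.327) and passed without virgin replicate 1 (adjusted p = 0.239) and among probesets with a mean of 7 or more (adjusted p = 0.233). Chosen after their values were seen, the widest differences of the list in maternal relative to virgin LS were those of Sgk1, a kinase related to Akt that glucocorticoids induce, at 0.35 (SE 0.13, adjusted p = 0.366), and of the binding protein gene Igfbp4 at -0.39 (SE 0.14, adjusted p = 0.329).

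**Figure D5:**
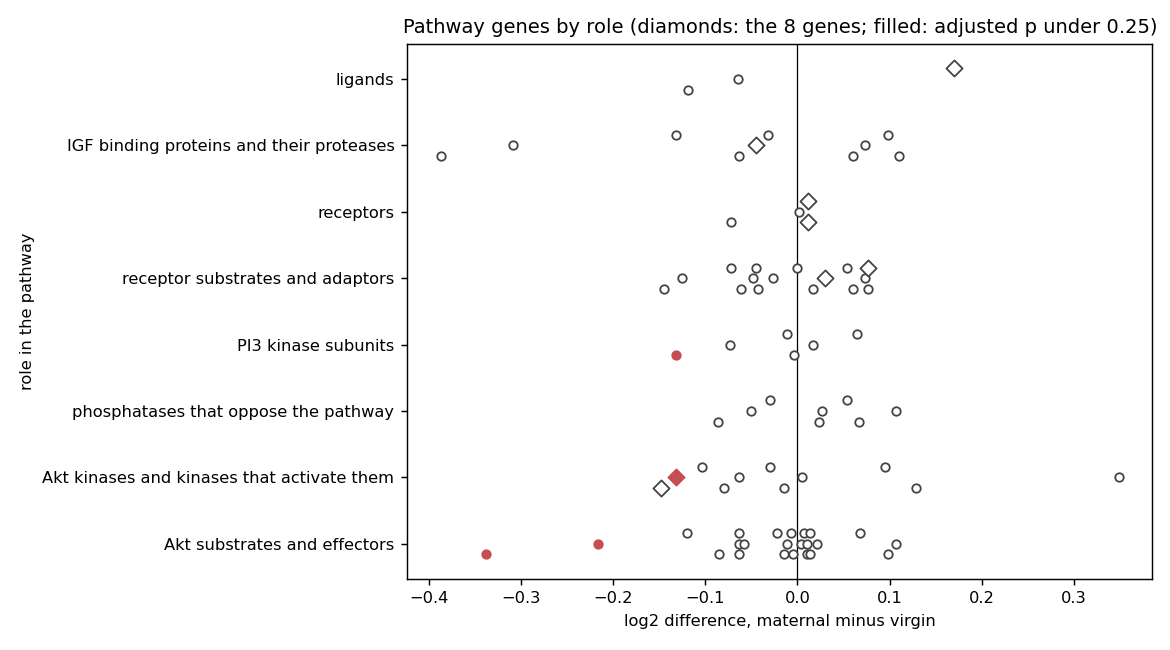
Log2 differences of maternal minus virgin LS (x axis) of 81 pathway genes, 1 point a gene, by role (y axis). Diamonds are the 8 genes and circles the other 73, and filled points have a limma adjusted p under 0.25. The 4 filled points, Akt1, Pik3r2, Foxo1 and Foxo6, all lie below 0, and most receptor, substrate and effector points lie within 0.15 of 0.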

How the data were processed

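LS RNA was hybridized to 1 Affymetrix Mouse Gene 1.0 ST array per mouse (18 arrays). The deposited values are log2 signals, which the authors summarized and normalized with PLIER and a background correction by GC bin in Affymetrix Power Tools 1.12.0. They are deposited with 2 decimals and were used as they are. How that step scaled arrays to each other is not given in the sources used here. By the platform annotation, 21797 of 35557 probesets name 1 gene, 1613 several and 12147 none.

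The 3 groups were compared over all 18 arrays in 1 linear model per probeset, using limma 3.58.1 (R 4.3.3). Variances were moderated by eBayes, and p was adjusted by Benjamini and Hochberg's method across the whole array. The threshold was the study's adjusted p of 0.25. The fit was tested on simulated data in which residuals were shuffled for each probeset separately. That removes the links between probesets, so the run does not show how steady the counts of calls are. Single genes also received an exact two-sided permutation test over 924 splits. Groups came from the sample labels. Each array is 1 mouse, and the number of arrays limits the precision.

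Named were the 8 genes, each pathway gene that passed, the gene with the smallest p per role and, for likeness, the 3 genes of highest r. Prr5 was named because the study lists it, and Sgk1 and Igfbp4 after their values were seen. The genes and lists were chosen with earlier results of these data known. Some marker genes had been named for changes in these samples, so their direction is not independent evidence. Examples are Egfr, Nr2e1 and Fabp7 of the stem list and Bcl11b, Rarb, Drd1 and Drd2 of the striatal list. Alternatives were quantile normalization, median centring, a mean of at least 7, trend and robust moderation, fits of only the groups compared, a replicate block, the mean of all probesets of a gene, and each array left out.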

Additional observations from a re-analysis of the deposited data

Results flagged for a closer look

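In a group of 6, an extreme array was marked where its gap to the nearest other array exceeded 0.625 of the range of the group. Of 60 groups examined, 2 were marked, and chance marks about 1 in 20. Both were maternal replicate 5. Its Igfbp5 log2 signal of 9.39 was the lowest of the maternal group, the next being 9.72 (gap over range 0.66). Its Dok4 log2 signal of 7.53 was the highest of that group, the next being 7.36 (gap over range 0.739).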

How the results depend on the processing

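Akt1 kept its direction under every alternative run and passed after quantile normalization, after median centring, after dropping probesets with a mean under 7, and with trend and robust moderation. The count of the 8 genes that passed in maternal relative to virgin LS was 0 with only the groups compared and 0 with the replicate block, and 0 to 1 with each array left out. It was 0 throughout in the other comparisons. The replicate numbers were not taken as pairs, since the deviations of same-numbered arrays correlated between -0.248 and 0.0953. Under the block, 356 of all probesets passed in maternal relative to virgin LS and Akt1, Foxo6 and Pik3r2 no longer did (adjusted p = 0.255, 0.256 and 0.305). RNA was prepared in matched triplets, but the sources used here do not say whether the replicate number marks them. With a mean of at least 7 the count of all probesets was 1130 in maternal relative to virgin LS, where 7 pathway genes passed, and 204 in maternal relative to pups removed LS. The latter count was 30 with trend and robust moderation, 7 with median centring and 42 with quantile normalization. In pups removed relative to virgin LS it was 33 with only the groups compared. With each array left out, all probesets ranged from 10 (without maternal replicate 5) to 1639 (without virgin replicate 6) in maternal relative to virgin LS, from 5 (without maternal replicate 4) to 719 (without pups removed replicate 4) in maternal relative to pups removed LS, and from 18 (without virgin replicate 2) to 266 (without virgin replicate 4) in pups removed relative to virgin LS. Pathway genes ranged from 0 to 4, 0 to 3 and 0 to 1. The cause of these shifts was not tested.

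Differences near 0 changed sign. With median centring Igf1r was -0.0050 in maternal relative to virgin and -0.025 in pups removed relative to virgin LS, Insr was -0.0050 in maternal relative to virgin LS and Ins2 was 0.0083 in maternal relative to pups removed LS. With quantile normalization Igf1r was -0.013 in pups removed relative to virgin LS and Insr 0.0032 in maternal relative to pups removed LS. With the mean of all probesets Insr was -0.0025 in maternal relative to virgin LS. With each array left out, maternal relative to virgin LS ranged from -0.011 to 0.031 for Igf1r, -0.0073 to 0.025 for Insr, -0.0063 to 0.052 for Irs2 and -0.093 to 0.022 for Igfbp5. Maternal relative to pups removed LS ranged from -0.027 to 0.069 for Igf1, -0.016 to 0.026 for Igf1r, -0.012 to 0.046 for Irs1 and -0.037 to 0.021 for Ins2. Pups removed relative to virgin LS ranged from -0.072 to 0.014 for Akt2, -0.014 to 0.022 for Igf1r and -0.026 to 0.012 for Igf2r.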
